A study of Mus musculus with 6 samples.

Results

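Open chromatin around the semaphorin, plexin, neuropilin, Slit, Robo and netrin genes was compared between wild-type and Hox13-/- distal forelimb buds. A peak of accessible chromatin was assigned to one of these genes when its midpoint lay inside the gene or within 50 kb of its start site. The genes were the autosomal protein-coding genes of GENCODE whose symbols begin with Sema, Plxn, Robo or Ntn, and others taken by name. Those were Nrp1, Nrp2, Slit1, Slit2, Slit3 and the netrin receptor genes Dcc, Unc5a, Unc5b, Unc5c and Unc5d. All 47 such genes held at least 1 peak, and together they held 527 of the 61954 peaks in the deposited table. Of these, 366 lay inside a gene of the set and 402 had a start site of the set as the nearest of any protein-coding gene. Robo3 and Robo4 lie side by side on chromosome 9 and share 4 peaks, so that 531 pairs of peak and gene were described.

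ATAC-seq, which marks open chromatin by where the transposase Tn5 inserts sequencing adapters, was performed on distal forelimb buds at E11.5, with 2 libraries from wild-type and 2 from Hox13-/- embryos. Hox13-/- embryos carry the null alleles Hoxa13Str and Hoxd13lacZ, so that both genes encoding the HOX13 proteins of the limb are inactive, and all mice were of mixed C57Bl/6 x 129 background. Each library held 50000 cells from the left and right buds of 1 embryo, and 2 proximal wild-type libraries of the study were not analysed here. The deposited values are rLog values, which are on a log2 scale, corrected for library size and shrunken towards the mean of each peak; they hold no read counts, and the depth of each peak is therefore not known.

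Semaphorins are secreted or membrane-bound guidance proteins that signal through plexins, with neuropilins as the partner that most secreted semaphorins need to bind a plexin. Slits are secreted proteins bound by Robo receptors, and netrins attract or repel cells through Dcc and the Unc5 receptors. In the limb bud these systems are known for steering motor and sensory axons and blood vessels, and several of the genes are also transcribed in limb mesenchyme.

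The sequences of the 5 lower and the 5 higher peaks with the largest differences are given because these peaks are described one by one below. Each is the 200 bases around the midpoint of the peak, on the plus strand of mm10. Capitals mark matches on either strand to CAATAAA or TCGTAAA, or to a wider HOX13 motif that reads pyrimidine, pyrimidine, any base but G, purine and then TAAA. The first 5 were less accessible in Hox13-/- and the last 5 more accessible.
Robo1 chr16:72534155-72534354: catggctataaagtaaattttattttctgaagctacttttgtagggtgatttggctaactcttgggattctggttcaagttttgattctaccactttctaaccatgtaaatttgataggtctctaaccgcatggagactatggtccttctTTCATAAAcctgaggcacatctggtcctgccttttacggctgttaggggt
Unc5c chr3:141791505-141791704: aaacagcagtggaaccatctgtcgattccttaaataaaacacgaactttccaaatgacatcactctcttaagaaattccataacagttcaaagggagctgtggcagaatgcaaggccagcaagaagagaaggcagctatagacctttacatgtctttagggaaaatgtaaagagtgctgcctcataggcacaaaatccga
Sema6d chr2:124626472-124626671: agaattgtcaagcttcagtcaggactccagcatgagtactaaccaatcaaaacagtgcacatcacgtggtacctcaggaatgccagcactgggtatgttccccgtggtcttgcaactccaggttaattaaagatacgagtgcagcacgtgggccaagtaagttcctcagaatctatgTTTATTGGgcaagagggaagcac
Nrp1 chr8:128441627-128441826: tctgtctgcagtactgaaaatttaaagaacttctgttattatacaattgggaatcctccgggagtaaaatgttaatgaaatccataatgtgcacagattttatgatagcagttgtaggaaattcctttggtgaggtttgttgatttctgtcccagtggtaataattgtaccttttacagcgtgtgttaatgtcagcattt
Nrp1 chr8:128371733-128371932: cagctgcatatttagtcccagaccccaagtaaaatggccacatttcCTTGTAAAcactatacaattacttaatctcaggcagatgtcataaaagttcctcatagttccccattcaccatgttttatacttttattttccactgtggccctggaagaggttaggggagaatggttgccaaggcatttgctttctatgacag
Slit3 chr11:35074814-35075013: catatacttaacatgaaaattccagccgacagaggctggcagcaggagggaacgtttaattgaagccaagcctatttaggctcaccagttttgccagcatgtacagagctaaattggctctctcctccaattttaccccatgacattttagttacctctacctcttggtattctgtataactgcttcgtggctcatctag
Unc5d chr8:28744481-28744680: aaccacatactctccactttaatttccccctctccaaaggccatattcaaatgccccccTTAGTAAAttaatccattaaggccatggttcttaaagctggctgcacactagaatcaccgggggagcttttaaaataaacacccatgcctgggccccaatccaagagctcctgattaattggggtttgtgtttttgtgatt
Sema5a chr15:32596368-32596567: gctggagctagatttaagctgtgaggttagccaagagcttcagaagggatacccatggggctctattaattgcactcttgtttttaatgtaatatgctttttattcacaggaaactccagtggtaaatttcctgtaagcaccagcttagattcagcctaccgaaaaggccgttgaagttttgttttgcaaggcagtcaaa
Slit3 chr11:35276206-35276405: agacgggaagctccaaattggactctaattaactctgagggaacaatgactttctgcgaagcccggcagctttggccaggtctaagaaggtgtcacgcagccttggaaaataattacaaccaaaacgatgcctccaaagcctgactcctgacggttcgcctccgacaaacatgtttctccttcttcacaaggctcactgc
Slit3 chr11:35085555-35085754: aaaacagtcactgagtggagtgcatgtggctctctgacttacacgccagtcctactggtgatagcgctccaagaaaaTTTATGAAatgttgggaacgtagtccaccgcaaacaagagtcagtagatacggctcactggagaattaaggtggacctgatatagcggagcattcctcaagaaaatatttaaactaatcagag

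Of these 10 windows, 3 of the 5 lower and 2 of the 5 higher ones held a match to the wider motif, and 1, in Sema6d, also held CAATAAA on the minus strand. The capitals describe letters in the window and not binding.

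Peaks that were lower and peaks that were higher in Hox13-/- were both found around these genes, at close to the shares seen over the whole table. At an adjusted p under 0.05, 47 of the 527 peaks were lower in Hox13-/-, which is 8.92% against 8.31% of all peaks. In the other direction 63 were higher, which is 12.0% against 11.4% of all peaks. The median difference, Hox13-/- minus wild type, was 0.01 on the log2 scale around these genes and -0.01 over all peaks. Centring each library on its own median, which shifted the median of all peaks to -0.04, gave 56 lower and 53 higher, and 6811 lower (11.0%) and 6017 higher (9.71%) among all peaks, so that which direction was more frequent depended on the scaling. Under this centring 10 of the 110 calls did not pass, and under quantile or cyclic loess normalization 13 each, and the calls lost under these 3 scalings had differences of at most 0.38.

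Large differences were few. Beyond a fold of 1.5, 11 of the 527 peaks were lower and 15 higher, against 965 (1.56%) and 2064 (3.33%) of all 61954 peaks. Beyond a difference of 1, which is a fold of 2, 3 of the 527 were lower and 2 higher, against 139 (0.224%) and 194 (0.313%) of all peaks. Values of both Hox13-/- libraries lay under both wild-type libraries in 145 of the 527 peaks and above them in 158. Over the whole table this held for 18315 (29.6%) and 18391 (29.7%) of the 61954 peaks. All 47 lower and all 63 higher peaks were separated in this way, so a lack of overlap named below is no further evidence for a single peak. Of the 47 genes, 8 had lower peaks only, 10 had higher peaks only, 15 had both and 14 had neither. These counts have no comparison, as they were not made over all genes. A gene with more peaks has more chances of a changed one, and the number ran from 2 in Ntn4 to 51 in Slit3. Some of the peaks counted are nearest to a neighbouring gene.

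**Figure D1:**
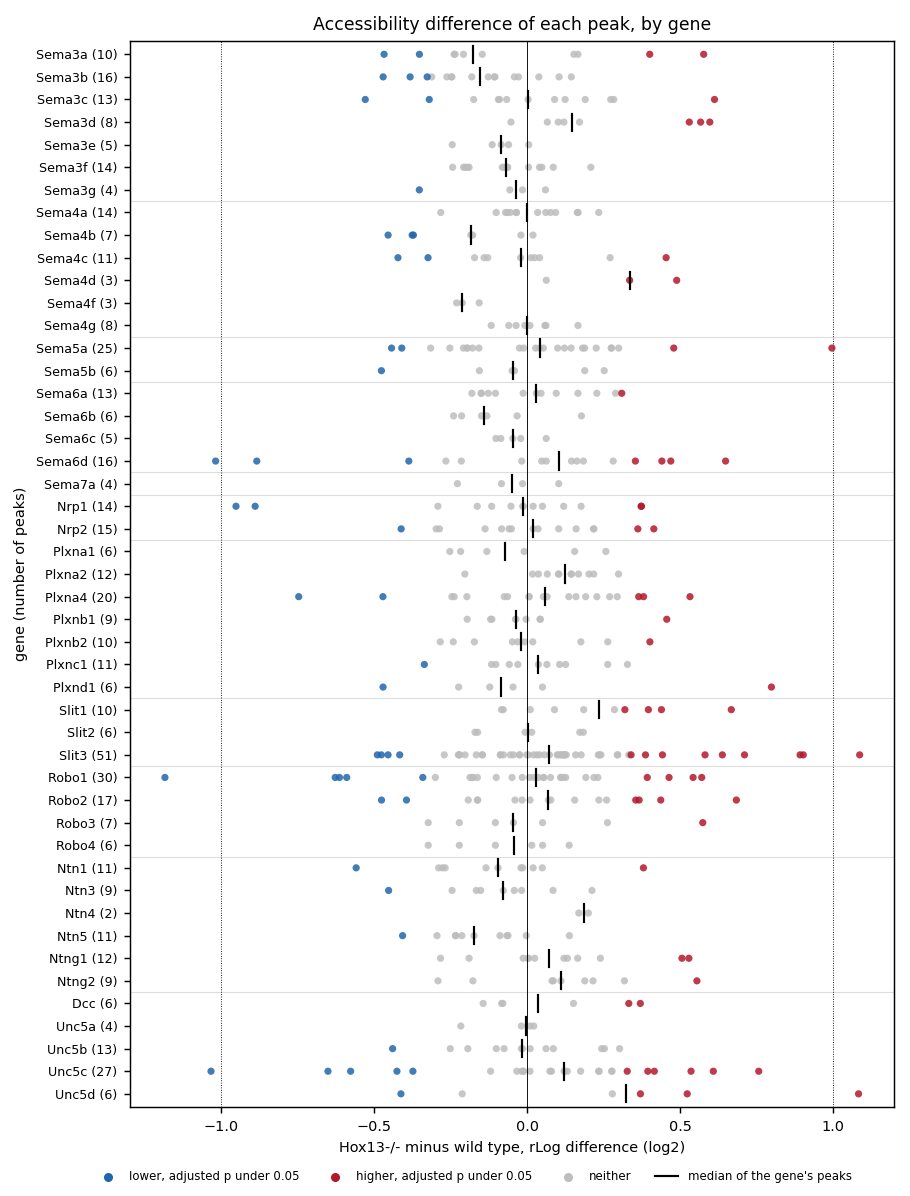
Each point is 1 peak, placed by its rLog difference (Hox13-/- minus wild type, log2, horizontal axis) in the row of its gene, with the number of peaks in brackets, the median as a bar and dotted lines at a difference of 1 in each direction. Genes are ordered by role, and 15 of the 47 genes have both blue (lower) and red (higher) peaks at an adjusted p under 0.05. The same count was not made over all genes, and genes with more peaks have more chances of both.

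Class 3 semaphorins, the secreted members that repel axons and endothelial cells, had 70 peaks at 7 genes. Of these, 8 were lower (11.4%) and 6 higher (8.57%), against 8.31% and 11.4% of all peaks. Sema3d, a secreted semaphorin with roles in heart and peripheral nerve development, had 8 peaks, and 3 of them rose while none fell. The largest of the 3 lies in an intron at chr5:12498445-12499198 and was at 6.54 and 6.54 (rLog) in wild type against 7.28 and 7.00 in Hox13-/- (difference 0.60, SE 0.127, adjusted p = 5.72e-05). Both Hox13-/- libraries were above both wild-type libraries. The other 2 peaks of Sema3d rose by 0.53 and 0.57, and its start-site peak differed by 0.17 (adjusted p = 0.364).

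Sema3c, which in development acts on neural crest and vessel cells through neuropilins and plexins, moved both ways. An intronic peak 74.2 kb inside the gene, at chr5:17648347-17648634, was at 4.60 and 4.40 in wild type against 5.19 and 5.03 in Hox13-/- (difference 0.61, SE 0.131, adjusted p = 6.49e-05). A second intronic peak, 55.4 kb inside the gene, was at 5.15 and 4.66 in wild type against 4.49 and 4.25 in Hox13-/- (difference -0.53, adjusted p = 7.49e-04). The wild-type libraries of the second peak lay further apart than in the first, and it did not pass without wild-type replicate 1 (-0.28) or without Hox13-/- replicate 2 (-0.41). Sema3a, the best known repellent of motor and sensory axons, had 10 peaks with 2 lower and 2 higher, from -0.47 at an untranslated exon 274.0 kb into the gene to 0.58 in an intron 19.5 kb from the start site. Sema3b had 3 lower peaks of 16 and none higher, but the 2 strongest of them are nearest to Gnai2 and the third to Ifrd2, at or near the start sites of those neighbours. The only lower peak of Sema3g, at -0.35, lies at the start site of Phf7 and did not pass under quantile or cyclic loess normalization. Sema3e and Sema3f, with 5 and 14 peaks, had none that passed.

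Membrane-bound semaphorins of classes 4 to 7 had 121 peaks at 13 genes. Of these, 11 were lower (9.09%) and 10 higher (8.26%), against 8.31% and 11.4% of all peaks. Sema4b, a transmembrane semaphorin of class 4, had 3 lower peaks of 7 and none higher. The peak 5.7 kb into the gene, at chr7:80192343-80192768, was at 5.67 and 5.97 in wild type against 5.43 and 5.31 in Hox13-/- (difference -0.46, SE 0.130, adjusted p = 0.00475). The 2 genotypes did not overlap there, as at every lower or higher peak of the set. Wild-type replicate 1 (5.67) and Hox13-/- replicate 1 (5.43) lay closer to each other than the 2 means did. The other 2 lower peaks, at -0.38 and -0.37, are nearest to the neighbouring gene Cib1. The one at -0.38 did not pass under cyclic loess normalization. Sema4d, a ligand of Plxnb1, had 3 peaks, of which 2 rose, by 0.49 at 12.7 kb upstream and by 0.34 in an intron. The intronic peak of Sema4d did not pass after centring the libraries. Sema4c had 2 lower peaks at its start site and 1 higher, whereas Sema4a, Sema4f and Sema4g had none that passed.

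Sema5a, a semaphorin with thrombospondin repeats that can attract or repel, held the peak just short of a difference of 1. At chr15:32596176-32596758, in an intron 351.7 kb from the start of the gene record and 5.2 kb from an annotated transcript start of Sema5a, the values were 6.36 and 6.25 in wild type against 7.40 and 7.21 in Hox13-/-. Accessibility rose by 0.997 (SE 0.127, adjusted p = 8.80e-13), and between 0.90 and 1.09 with any 1 library left out. Of the 25 peaks of Sema5a another 1 was higher and 2 were lower, the lower ones by -0.44 and -0.41.

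Sema6d, a transmembrane semaphorin that binds Plxna1 and related plexins, had 3 lower and 4 higher peaks of 16, and they were ordered along the gene. The 4 higher peaks lay between 61.6 and 371.2 kb from the start of the gene record and differed by 0.35 to 0.65. The one at 61.6 kb (0.35) did not pass under any of the 3 other scalings. The 3 lower peaks lay between 520.7 and 538.9 kb, near the other end of the gene. The strongest, at chr2:124626392-124626751, was at 5.68 and 5.48 in wild type against 4.61 and 4.51 in Hox13-/- (difference -1.02, SE 0.131, adjusted p = 1.41e-12), and it is the peak whose printed window holds CAATAAA. Its neighbour at chr2:124628806-124628975 was at 4.52 and 4.76 in wild type against 3.84 and 3.68 in Hox13-/- (difference -0.88, SE 0.129, adjusted p = 6.57e-10). Both Hox13-/- libraries were well under both wild-type libraries at each of the 2 peaks, and the peak caller had found all 3 lower peaks in both wild-type and in neither Hox13-/- library. These peaks are 0.1 to 18.3 kb from an annotated transcript start of Sema6d that lies inside the long gene record. Sema6a had 1 higher peak of 13 (0.31), which did not pass after centring, and Sema6b, Sema6c and Sema7a had none that passed.

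**Figure D2:**
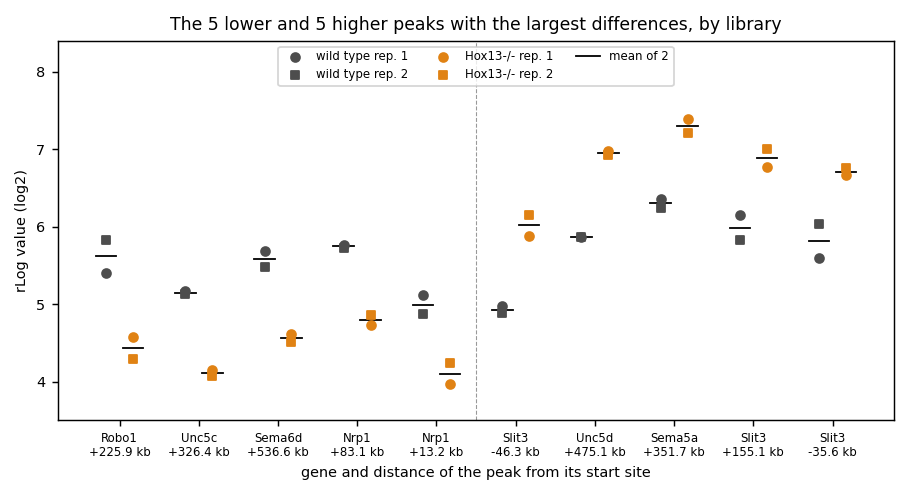
rLog values (log2, vertical axis) of the 4 libraries at the 5 lower (left) and 5 higher (right) peaks with the largest differences, each labelled by gene and by distance from the start site, with bars for the mean of the 2 libraries of a genotype. In all 10 peaks the 2 wild-type values lie on one side of the 2 Hox13-/- values, as they do in every lower or higher peak of the set.

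Neuropilins bind secreted semaphorins and, for Nrp1, also VEGF. Nrp1 held the next largest lower peaks after those of Robo1, Unc5c and Sema6d. At chr8:128441502-128441951, in an intron 83.1 kb into the gene, the values were 5.77 and 5.73 in wild type against 4.72 and 4.87 in Hox13-/- (difference -0.95, SE 0.131, adjusted p = 4.27e-11). At chr8:128371646-128372018, 13.2 kb into the gene, they were 5.12 and 4.87 in wild type against 3.97 and 4.24 in Hox13-/- (difference -0.89, SE 0.131, adjusted p = 9.02e-10). Neither peak overlapped between the genotypes, and neither was found by the peak caller in a Hox13-/- library. Another 2 of the 14 Nrp1 peaks rose by 0.37 each, and the start-site peak of Nrp1 differed by -0.29 (adjusted p = 0.0995). Under quantile or cyclic loess normalization 1 Nrp1 peak was higher. Nrp2 had 1 lower peak (-0.41, 3.5 kb into the gene) and 2 higher ones (0.36 and 0.41) of 15. The higher peak at 0.36 did not pass under any of the 3 other scalings.

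Plexins are the receptors that carry the semaphorin signal into the cell, and their 7 genes had 74 peaks. Of these, 4 were lower (5.41%) and 6 higher (8.11%), against 8.31% and 11.4% of all peaks. Plxna4, a receptor for Sema3a together with neuropilins, had 2 lower and 3 higher peaks of 20. Under each of the 3 other scalings 2 were higher. The stronger lower peak, in an intron at chr6:32363666-32364070, was at 5.35 and 5.44 in wild type against 4.65 and 4.65 in Hox13-/- (difference -0.75, SE 0.131, adjusted p = 5.33e-07), and the second lower peak (-0.47) lies 219.5 kb from the start site, close to the first at 224.3 kb. The strongest higher peak, 153.8 kb from the start site, was at 5.79 and 5.95 in wild type against 6.40 and 6.41 in Hox13-/- (difference 0.53, SE 0.129, adjusted p = 5.58e-04). The genotypes did not overlap at these peaks, as at every lower or higher peak of the set.

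Plxnd1, the endothelial receptor of Sema3e, changed in opposite directions at its start site and inside the gene. Its intronic peak at chr6:115987039-115987718 was at 5.18 and 5.54 in wild type against 5.97 and 6.34 in Hox13-/- (difference 0.80, SE 0.130, adjusted p = 4.69e-08). Its start-site peak was at 6.88 and 6.77 in wild type against 6.35 and 6.36 in Hox13-/- (difference -0.47, SE 0.128, adjusted p = 0.00255). The intronic peak lies 7.6 kb from the start site, and neither peak overlapped between the genotypes. Plxnb1 and Plxnb2 each had 1 higher peak (0.46, nearest to Trex1, and 0.40), Plxnc1 had 1 lower (-0.34), and Plxna1 and Plxna2 had none that passed.

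Slit ligands had 67 peaks at 3 genes, of which 13 were higher (19.4%, against 11.4% of all peaks) and 4 lower (5.97%, against 8.31%). Of the Slit peaks 2.99% were at a start site, compared with 24.3% of all peaks, and of all start-site peaks 0.672% were higher. Away from start sites 13 of 65 Slit peaks were higher, a larger share than the 14.8% of all such peaks. Slit3, which is also expressed outside the nervous system, had 51 peaks, the most of any gene in the set, with 9 higher and 4 lower. Its strongest peak lies upstream of the gene at chr11:35074757-35075069, 46.3 kb from the start site, and was at 4.97 and 4.89 in wild type against 5.89 and 6.15 in Hox13-/- (difference 1.09, SE 0.130, adjusted p = 2.12e-14). A pair of adjoining peaks 35.6 and 35.0 kb upstream also rose. The first was at 5.60 and 6.03 in wild type against 6.66 and 6.76 in Hox13-/- (difference 0.89, SE 0.129, adjusted p = 4.04e-10), and the second was at 3.88 and 3.89 against 4.55 and 4.50 (difference 0.64, adjusted p = 1.93e-05). No protein-coding start site is nearer to these 3 peaks than that of Slit3.

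Inside Slit3 the strongest higher peak, at chr11:35276003-35276607, was at 6.14 and 5.82 in wild type against 6.77 and 7.01 in Hox13-/- (difference 0.90, SE 0.128, adjusted p = 2.03e-10). An intronic peak 205.3 kb from the start site rose by 0.71, and the other 4 higher ones rose by 0.34 to 0.58. The peak with the smallest rise (0.34) did not pass under any of the 3 other scalings. The 4 lower peaks of Slit3 lay among the higher ones, between 122.6 and 317.1 kb from the start site. The strongest of them was at 5.04 and 5.03 in wild type against 4.59 and 4.50 in Hox13-/- (difference -0.49, SE 0.131, adjusted p = 0.00216). Its start-site peak was at 6.14 and 6.51 in wild type against 6.13 and 6.34 in Hox13-/-, which overlap.

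Slit1, a repellent made mainly in the nervous system, had 4 higher peaks of 10 and no lower one, and 3 higher after centring the libraries. The strongest, in an intron at chr19:41613357-41613676, was at 5.37 and 5.27 in wild type against 5.97 and 6.01 in Hox13-/- (difference 0.67, SE 0.130, adjusted p = 8.52e-06). It lies 130.1 kb from the start of the gene record and 31.1 kb from the start site of Gm340, which is nearer. The median difference over the 10 peaks was 0.24. None of the 6 peaks of Slit2, the third ligand, passed, with differences from -0.17 to 0.18.

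Robo receptors bind Slits. Their 4 genes had 56 peaks, 7 lower (12.5%) and 9 higher (16.1%), against 8.31% and 11.4% of all peaks. Robo1, a receptor of Slit1, Slit2 and Slit3, held the largest decrease of the set, an intronic peak at chr16:72534038-72534470, 225.9 kb from the start of the gene record. Its values were 5.40 and 5.83 in wild type against 4.57 and 4.29 in Hox13-/- (difference -1.19, SE 0.131, adjusted p = 7.19e-17). The genotypes were apart, the peak was found by the peak caller in both wild-type and in neither Hox13-/- library, and the difference lay between -1.40 and -0.97 with any 1 library left out. A further 4 of the 30 Robo1 peaks were lower, by -0.34 to -0.63: 2 upstream of the gene, at 40.2 and 32.4 kb, and 2 in introns at 547.3 and 553.7 kb.

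In the same gene 4 intronic peaks rose, by 0.39 to 0.57. The strongest of them, at chr16:72924352-72925008, was at 5.66 and 5.48 in wild type against 6.19 and 6.09 in Hox13-/- (difference 0.57, SE 0.130, adjusted p = 1.95e-04). The brightest peak of Robo1 among those that changed, at chr16:72685613-72686971, was at 8.17 and 8.29 in wild type against 8.82 and 8.73 in Hox13-/- (difference 0.54, adjusted p = 1.43e-04). Lower and higher peaks were interspersed along the gene.

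Robo2, the paralogue of Robo1 on the same chromosome, had 2 lower and 4 higher peaks of 17. Under each of the 3 other scalings 3 were higher. The peak 14.6 kb into the gene, at chr16:74397024-74397393, was at 4.98 and 4.84 in wild type against 5.84 and 5.35 in Hox13-/- (difference 0.68, SE 0.131, adjusted p = 5.42e-06). The 2 Hox13-/- libraries lay apart, and without Hox13-/- replicate 1 the difference was 0.44 and did not pass. The stronger lower peak was at 4.60 and 4.61 in wild type against 4.17 and 4.09 in Hox13-/- (difference -0.48, SE 0.130, adjusted p = 0.00275), and without Hox13-/- replicate 2 it did not pass either. Robo3, which acts in commissural axons, had 1 higher peak of 7 (0.57, 23.6 kb upstream), and Robo4, the endothelial member, had none of 6.

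**Figure D3:**
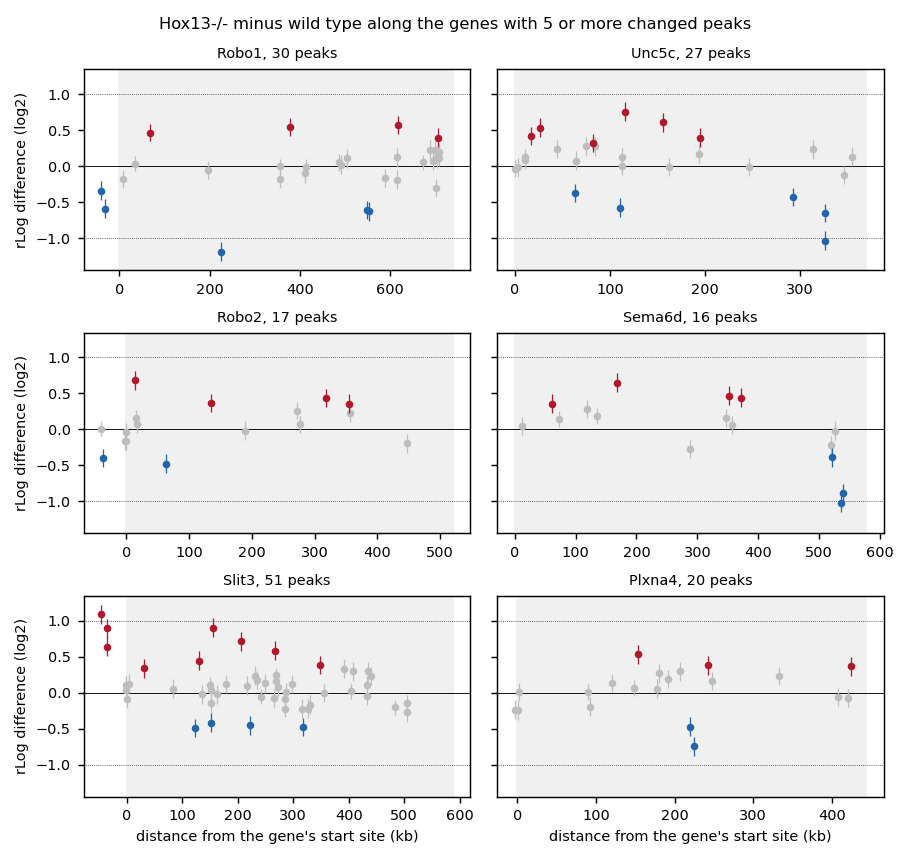
rLog difference (Hox13-/- minus wild type, log2, vertical axis, with limma standard errors as bars) of each peak against its distance from the start of the gene record (kb, along the direction of transcription, horizontal axis) in the 6 genes with 5 or more changed peaks; shading marks the gene, blue is lower and red higher at an adjusted p under 0.05. In Sema6d the 3 lower peaks lie at 520.7 kb and beyond and the 4 higher ones at 371.2 kb and before, whereas in Robo1 and Slit3 both kinds are interspersed.

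Netrins and the related Ntng proteins had 54 peaks at 6 genes. Of these, 3 were lower (5.56%) and 4 higher (7.41%), against 8.31% and 11.4% of all peaks. Ntn1, the founding chemoattractant of the family, had 11 peaks. One in an intron, at chr11:68290654-68291136, was at 6.14 and 6.13 in wild type against 5.46 and 5.69 in Hox13-/- (difference -0.56, SE 0.130, adjusted p = 2.76e-04), and a second, in an untranslated exon, rose by 0.38 but did not pass under quantile normalization. The genotypes did not overlap at the lower peak. Ntng1, a membrane-anchored member, had 2 higher peaks of 12 (0.51 and 0.53) and Ntng2 had 1 of 9 (0.56, 18.9 kb upstream). The lower peak of Ntn3 lies at its start site, the one of Ntn5 (-0.41) is nearest to Mamstr, and Ntn4 had none that passed.

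Netrin receptors had 56 peaks at 5 genes, with 7 lower (12.5%) and 11 higher (19.6%), against 8.31% and 11.4% of all peaks. Away from start sites 11 of 49 were higher (22.4%), against 14.8% of all such peaks. Unc5c, a receptor through which netrin repels axons, had 5 lower and 6 higher peaks of 27. The higher peak with a difference of 0.33 did not pass after centring the libraries. The strongest decrease, in an intron at chr3:141791444-141791765, was at 5.16 and 5.13 in wild type against 4.15 and 4.08 in Hox13-/- (difference -1.03, SE 0.131, adjusted p = 5.46e-13). The adjoining peak, at chr3:141791215-141791395, was at 4.01 and 4.07 in wild type against 3.33 and 3.45 in Hox13-/- (difference -0.65, SE 0.124, adjusted p = 4.81e-06). Both lie 1.5 to 1.8 kb from an annotated transcript start inside the gene and were called in both wild-type and neither Hox13-/- library. At both peaks the replicates of a genotype lay much closer to each other than to the other genotype.

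The 6 higher peaks of Unc5c lay within 17.4 to 194.4 kb of the start site, and the strongest was at 4.62 and 4.47 in wild type against 5.21 and 5.39 in Hox13-/- (difference 0.76, SE 0.131, adjusted p = 3.64e-07). It lies at 116.2 kb, and a lower peak beside it at 110.1 kb was at 5.34 and 5.13 in wild type against 4.71 and 4.61 in Hox13-/- (difference -0.58, adjusted p = 1.95e-04), so that neighbouring elements of the gene changed in opposite directions. The start-site peak of Unc5c, at 8.16 and 8.04 in wild type against 8.11 and 8.02 in Hox13-/-, did not differ beyond the spread of replicates.

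Unc5d, another repulsive netrin receptor, held the second peak of the set to rise beyond 1. At chr8:28744268-28744893, in an intron 475.1 kb from the start site, the values were 5.87 and 5.87 in wild type against 6.98 and 6.93 in Hox13-/- (difference 1.08, SE 0.128, adjusted p = 8.43e-15). The peak caller had found it in both Hox13-/- but in no wild-type library. Of the other 5 peaks of Unc5d 2 were higher (0.52 and 0.37) and 1 lower (-0.41). Dcc, the attractive netrin receptor, had 2 higher peaks of 6 (0.33 and 0.37), of which neither passed under quantile or cyclic loess normalization and 1 passed after centring. Unc5b had 1 lower peak of 13, at its start site, and Unc5a had none of 4.

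**Figure D4:**
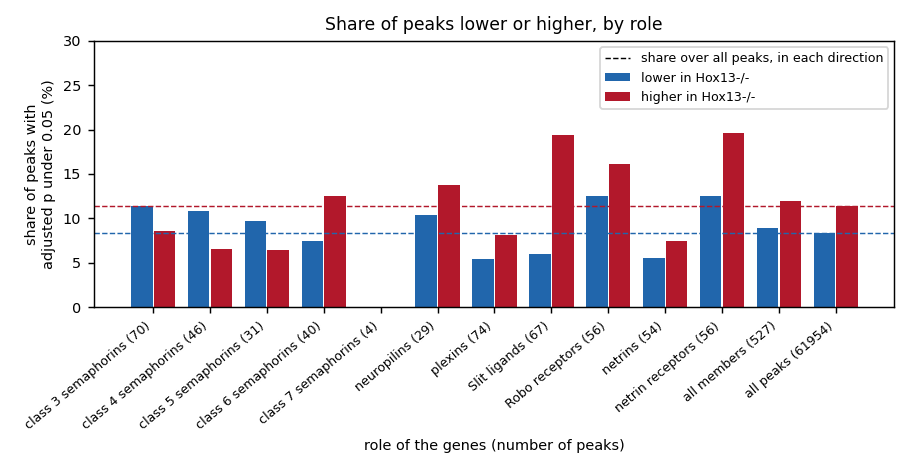
Share of peaks (percent, vertical axis) lower (blue) and higher (red) in Hox13-/- at an adjusted p under 0.05 for each role, with the number of peaks in brackets and dashed lines at the shares over all 61954 peaks (8.31% lower, 11.4% higher). Slit ligands (19.4%) and netrin receptors (19.6%) have the largest shares of higher peaks. Only 2.99% and 12.5% of their peaks are at a start site, against 24.3% of all peaks. Away from start sites 13 of 65 Slit and 11 of 49 netrin receptor peaks (22.4%) were higher. Both shares lie above the 14.8% of all such peaks, and the differences between roles were not tested.

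Start sites of the guidance genes were lower or not distinguishable, and none was higher. Higher peaks were rare at start sites in the whole table as well (0.672%). A peak within 1 kb of the gene's start site was present at 37 of the 47 genes, and where there were several the one with the highest mean rLog was taken. Of these 37 peaks, 6 were lower in Hox13-/-, against 8.85% of all start-site peaks, among which no choice of 1 peak per gene was made. Counting every peak of the set within 1 kb of any protein-coding start site, 11 of 98 were lower (11.2%), against 8.85% of all start-site peaks. No start-site peak of the set was higher in either way of counting, against 0.672% of all start-site peaks. At an unadjusted p under 0.05 the counts in limma over the 37 genes were 7 lower and 0 higher. The shares of all start-site peaks at that threshold were not counted, so these 2 counts have no comparison. Sema5b fell by 0.48, Plxnd1 by 0.47, Ntn3 by 0.45, Unc5b by 0.44, and Sema4c and Sema3c by 0.32 each on the log2 scale. The last 2 did not pass under quantile or cyclic loess normalization, which left 4 lower, or with any 1 library left out. A second start-site peak of Sema4c, with a lower mean rLog and a difference of -0.42, did pass under both normalizations. The start-site peak of Sema5b, a class 5 semaphorin, was at 7.07 and 7.11 in wild type against 6.59 and 6.64 in Hox13-/-, that of Unc5b, an endothelial netrin receptor, at 7.04 and 7.00 against 6.47 and 6.69, and neither overlapped between the genotypes. The median over the 37 genes was -0.08, whereas that of all 15038 start-site peaks of the table was -0.12.

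Away from the start sites of any protein-coding gene, 36 of 429 peaks were lower (8.39%, against 8.13% of all peaks away from start sites) and 63 were higher (14.7% against 14.8%). By this count all 63 higher peaks of the set were away from start sites, and 101 of the 7040 higher peaks over the whole genome were at one. Start sites here are the starts of gene records. Peaks at other annotated transcript starts, such as a lower peak of Sema6d, were therefore counted as away from them.

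**Figure D5:**
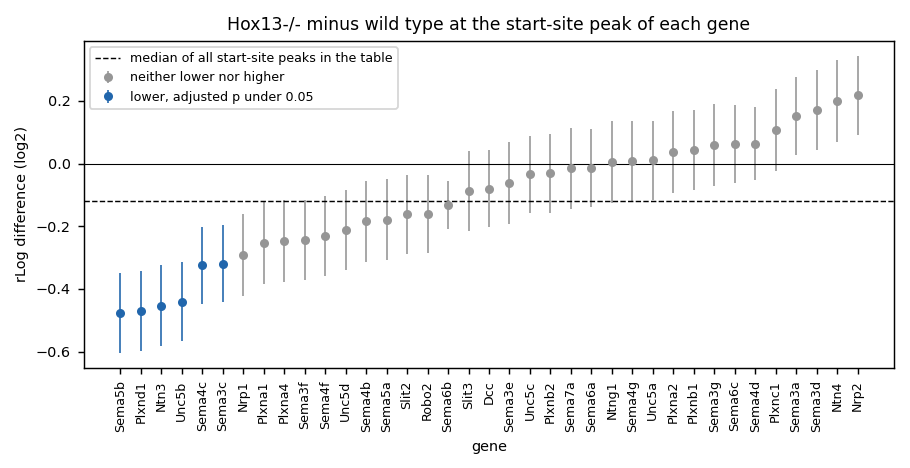
rLog difference (Hox13-/- minus wild type, log2, vertical axis, with limma standard errors) at the start-site peak of each of the 37 genes that have one, sorted by difference, with the median of all start-site peaks in the table (-0.12) as a dashed line. The 6 blue genes passed an adjusted p of 0.05, and Nrp2 had the highest value (0.22), which did not pass.

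GC content and length are given as a description, with no test. The median GC content was 43.4% in the lower, 46.8% in the higher and 53.3% in the other peaks, and the median length was 360, 382 and 221 bp. Over the whole table the GC contents were 48.6%, 47.8% and 53.3% and the lengths 315, 395.5 and 221 bp. CAATAAA or TCGTAAA lay in the 200 bases around the midpoint in 32 of the 527 peaks (6.07%), compared with 5.49% of all peaks, in 4 of the 47 lower (8.51%) and in 6 of the 63 higher (9.52%). Among all peaks 10.9% of the lower and 6.29% of the higher held it. The wider motif of the printed windows, which was taken up after these values were seen, was present in 96 peaks (18.2%, against 17.8% of all peaks). It lay in 16 of the 47 lower peaks (34.0%), in 11 of the 63 higher peaks (17.5%) and in 16.5% of the others. Over the whole table the same shares were 35.4%, 18.2% and 15.9%. Matches to the wider motif include every CAATAAA that follows a pyrimidine.

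Peak calls of single libraries followed the same split. Of the 47 lower peaks, 13 had been called in both wild-type and in neither Hox13-/- library, and of the 63 higher peaks 33 had been called in both Hox13-/- and in neither wild-type library. These are 27.7% and 52.4%, against 24.3% of all lower and 48.7% of all higher peaks. These calls come from the same libraries as the rLog values.

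Other genes of the pathway were described by the same rule. Partner receptors and ligands such as Neo1, Flrt2 and Nell2, at 15 genes with 115 peaks, had 12 lower (10.4%) and 5 higher peaks (4.35%), against 8.31% and 11.4% of all peaks. Intracellular effectors of plexins and Robo receptors, at 27 genes with 233 peaks, had 18 lower (7.73%) and 21 higher (9.01%). Farp1, a guanine nucleotide exchange factor linked to plexin A signalling, had 6 higher peaks of 23 and none lower, and Tiam1, an exchange factor for Rac, had 4 in each direction of 22. The largest decrease of the 2 lists (-1.20) was at an intergenic peak upstream of Mical2, an enzyme that takes actin filaments apart, though the start site of Dkk3 is nearer, and the largest increase (1.01) was in an intron of Nell2, a secreted ligand of Robo3. The median difference was 0.01 in the first list and -0.03 in the second.

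Peaks at markers of other cell types were compared because several of the genes act in vessels and nerves. Endothelial markers had 27 peaks at 5 of 8 genes, with none at Tie1, Emcn and Sox17. Of the 27, 3 were lower (11.1%) and none higher, against 8.31% and 11.4% of all peaks. The mean rLog of the 27 peaks was 4.43 and 4.45 in wild type against 4.45 and 4.38 in Hox13-/-. At 4 of 5 muscle precursor genes, all but Lbx1, 1 of 13 peaks was lower (7.69%) and 5 were higher (38.5%). The share of higher peaks was above the 11.4% of all peaks. The 13 peaks had means of 4.34 and 4.31 in wild type against 4.47 and 4.51 in Hox13-/-. Of the 9 ectoderm peaks none passed, of the 10 blood peaks 1 was lower (10.0%), and neural crest and Schwann precursors had a single peak, which did not pass. At the 4 limb mesenchyme markers 3 of 29 peaks were lower (10.3%) and 1 higher (3.45%), with means from 5.06 to 5.12 in all libraries. The part of cell composition in the differences above was not tested, and in bulk libraries fewer cells with an open element and less opening per cell cannot be told apart.

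The peak over the start site of Hoxd13 differed by -0.52 (adjusted p = 6.08e-04) and the one over Hoxa13 by -0.08 (adjusted p = 0.708); accessibility there does not show whether an allele is null. Replicates of one genotype correlated at r = 0.993 over all peaks in both genotypes. With 2 libraries in each genotype an exact permutation test cannot give a p under 0.33. The limma p-values rest on a spread shared by all peaks of similar signal, with standard errors of at most 0.131, and the spread of a single peak has no weight in them. With 1 library left out, the counts of lower peaks lay between 26 and 35 and those of higher peaks between 39 and 44.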

How the data were processed

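Per the labels and the study's methods, the authors aligned paired-end ATAC-seq reads to mm10 with Bowtie2 2.3.1, called peaks in each library with MACS2 2.1.1.20160309, merged them with HOMER 4.9.1 and deposited rLog values (log2 scale, scaled and shrunken by DESeq2) of 4 distal libraries at 61954 autosomal peaks. Handling of duplicates and of the Tn5 offset is not given in the sources used here. The authors' columns of fold changes, p-values and adjusted p-values hold their own comparison and were not used. Depth per peak is unknown, since rLog values hold no counts. The 2 proximal libraries, whose genotype label names a control RosaHoxa11/Hoxa11 although their title says wild type, were not analysed here.

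Differences were computed with limma 3.58.1 in R 4.3.3 (genotype term, variance trend, two-sided, Benjamini-Hochberg over all 61954 peaks), without a replicate block, and the procedure was tested on simulated data. Lower and higher mean an adjusted p under 0.05. Start sites are the 5′ ends of GENCODE M21 gene records. Sequence and motif letters were read from GRCm38 with pysam 0.24.0. Tables were handled with pandas 2.3.3 under Python 3.11.15, and matplotlib 3.10.9 made the figures. Coordinates are counted from 1. A wild-type and a Hox13-/- library with the same replicate number share only the number: their deviations from the genotype means correlated at -0.01.

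The genes, lists and tests were chosen with earlier results of these data known. Named by rule were the peaks beyond a difference of 1, the 15 lower and 15 higher peaks with the largest differences and no overlap between genotypes, start-site peaks that passed, and the strongest peaks of genes with 5 or more changed peaks; any other peak was picked for the text after its values had been seen. The markers were peaks inside, or within 10 kb of the start site of, a marker gene. Alternatives were 3 other scalings, no variance trend, a robust variance estimate, filters on mean rLog, the replicate block, a fold of 1.5, other distances, the motif in the whole peak or with wider letters, and leaving out each library.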

Additional observations from a re-analysis of the deposited data

How the results depend on the processing

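No named peak changed direction under the 3 other scalings. The variance settings, filters and replicate block leave a difference as it is, so its direction could not change there. Nor could it with 1 library left out, as no named peak overlapped between the genotypes. With the upper 50% of peaks by mean rLog kept, which leaves fewer peaks to test, 30 were lower and 45 higher. With a fold of 1.5 in place of 2, 11 were lower and 15 higher. The motif share was 8.54% in the whole peak and 18.2% with the wider letters, which were taken up after the data were seen. Leaving out 1 library gave 26 to 35 lower peaks (31 without wild-type replicate 1, 31 without Hox13-/- replicate 1, 26 without Hox13-/- replicate 2) and 39 to 44 higher peaks (39 without wild-type replicate 1 and 39 without Hox13-/- replicate 2); the lone library of a genotype is then assumed to vary like the others. Beyond a difference of 1 these counts were 3 to 4 lower and 2 to 4 higher (4 without wild-type replicate 1), and at start sites 2 to 5 lower (2 without Hox13-/- replicate 1, where Ntn3 and Unc5b were lost besides Sema4c and Sema3c) and 0 higher. Counts under quantile normalization were 45 lower and 55 higher, under cyclic loess normalization 44 and 57, and with a robust variance estimate, added after the data were seen, 48 and 61.

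With the replicate number as a block there were 44 lower and 62 higher peaks, and 2 of the 39 named peaks no longer passed, the start-site peaks of Sema4c and Sema3c; the numbers pair no libraries, and the correlation of their deviations was -0.01. Taking peaks within 20 kb gave 38 lower and 56 higher, within 100 kb 58 and 74, only peaks nearest to a start site of the set 36 and 54, and any transcript start 47 and 65. As rLog values hold no counts, no detection limit is given for a peak.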
